A study of Homo sapiens with 12 samples.

Results

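A375 is an established human melanoma cell line with an activated BRAF gene. The relative decay of its RNA was followed by BRIC-seq, a pulse-chase method in which cells take up 5-bromouridine (BrU), the label is withdrawn, and an antibody to BrU recovers the labelled RNA for sequencing. The libraries described here are the parental A375 libraries of the chase, taken at 0, 1, 3 and 6 h, which are 4 of the 12 libraries of the series. They were chosen by their labels, with 1 library per time. Labelling lasted 24 h. Another 4 libraries followed the same chase in A375/211, an A375 line that overexpresses MIR211 and is called the MIR211 line here, and the remaining 4 are RNA-seq of cells grown without BrU, 2 per line. The labels name no treatment of the parental cells other than BrU. They do not say whether the 4 times were 4 cultures. The p-values rest on the scatter of the chase libraries of both lines around a straight course over time. With 1 library per time this is not scatter between replicates. It includes any bend in a gene's course, and part of it may be technical. The comparison addresses which transcripts of A375 are lost early and which persist.

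An mRNA lives until its poly(A) tail is shortened, its cap is removed and exonucleases degrade the body. Transcripts of transcription factors, cytokines and feedback regulators are known for fast turnover, often through AU-rich elements and Pumilio sites in the 3′ UTR, whereas transcripts of metabolic enzymes, ribosomal proteins and the cytoskeleton are known for long lives. In melanoma cells with activated BRAF the ERK pathway stays on, and its output includes short-lived feedback regulators such as the DUSP phosphatases and the Sprouty and SPRED proteins.

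Each gene was given a slope, the change of its log2 level per hour of chase. Levels are in CPM, a gene's counts relative to the total of its library, with the totals scaled by TMM, a method that centres the bulk of genes. A slope is therefore set against the scaled pool of labelled RNA and is not a decay rate. That pool itself shrinks during a chase, and a transcript with a slope above 0 made up a growing share of what was left; no transcript is shown to have increased in the cell. "Fell" and "rose" are used in this relative sense, for an adjusted p under 0.05 in edgeR's quasi-likelihood test of the A375 slope. SE is the standard error of the slope.

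A pair of short 3′ UTR motifs mark known classes of unstable mRNA, and their sites in genes with steep falls are shown here because those genes lead the results below. TTATTTATT is a core form of the AU-rich element and TGTANATA, with N any base, is the Pumilio site. Both were searched on the transcript strand of the GENCODE 44 canonical transcript, with overlapping matches counted. Sites are written 5′ to 3′ with T for U, capitals mark the motif, and positions are hg38. Matches describe the letters and are not shown to be bound.
KIAA0232 (chr4:6882679-6882707, plus strand): tatgttgctgTTATTTATTtacgaacttc
CEP85L (chr6:118463251-118463279, minus strand): ttttatgggtTTATTTATTtttttttttt
PPM1D site 1 (chr17:60664780-60664808, plus strand): tgagtgtattTTATTTATTtattattttg
PPM1D site 2, overlapping site 1 (chr17:60664784-60664812, plus strand): tgtattttatTTATTTATTattttgtttg
ZFP36L2 (chr2:43223448-43223476, minus strand): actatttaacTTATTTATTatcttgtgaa
BTG1 site 2 (chr12:92142977-92143006, minus strand): tgaagatgctcTGTATATAcatgtttaggt
BTG1 site 3 (chr12:92142626-92142655, minus strand): cacctgcaagaTGTACATAaaaatcacata
BTG1 site 4 (chr12:92140551-92140580, minus strand): atatatgggacTGTAAATAgagaaatctgt
TENT5A site 3 (chr6:81745742-81745771, minus strand): ttggattttttTGTAAATAaaaaagttatt
FLRT3 (chr20:14324455-14324484, minus strand): ggttttaacacTGTACATAaatgttcaatt
MCL1 (chr1:150576664-150576693, minus strand): tttgtaaaaatTGTATATAtttttacagaa
Of the 10 genes with the steepest falls, 5 held TTATTTATT and 7 held TGTANATA in the 3′ UTR, against 10.5% and 33.7% of the 10822 protein coding genes tested. These 10, and the 10 with the steepest rises below, were taken from passing, symbol-bearing genes whose log2 CPM averaged 5 or more. Under that level NFIL3, TEF and TOB1 fell more steeply than most of the 10. The 10822 were not cut by level, so the shares compare unlike sets. Of the 10 genes with the steepest rises 9 were protein coding, and 0 of these held TTATTTATT and 1 held TGTANATA. The 3′ UTR also differed in length between these genes, with a median of 3963.5 bases in the falling genes and 565 in the rising genes. Over all protein coding genes tested it was 1555 bases, and the part of length in the motif shares was not tested here.

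The 4 libraries held 2671651, 3949014, 6807681 and 7279038 counts at 0, 1, 3 and 6 h, so depth rose with the time of chase and the 2 cannot be told apart. Genes with a count went the other way, from 25239 to 24043, 22948 and 21196. The ribosomal RNA of the mitochondrion took a growing share: MT-RNR2 held 7.71% of the counts at 0 h (95% Wilson interval 7.68 to 7.74), 9.01% at 1 h (8.98 to 9.04), 15.1% at 3 h (15.1 to 15.2) and 26.9% at 6 h (26.9 to 27.0). Markers of the melanocyte lineage were present in part (8 of 9 with a count, TYR at 0, summed level 112 to 268 CPM). At 0 h SOX10 (176 CPM) and MITF (58.0 CPM) made up most of the sum. The pigment cell markers PMEL (3, 0, 0 and 14 counts), MLANA (17, 11, 16 and 5 counts) and TYRP1 (0, 0, 0 and 6 counts) were low. Markers of other cell types were low as well: keratinocytes 1 of 4 with a count (KRT5, KRT14 and KRT1 at 0, summed 1.19 to 4.08 CPM), fibroblasts 4 of 5 (DCN at 0, 2.30 to 14.3 CPM, highest at 6 h), leukocytes 1 of 5 (CD3E, PTPRC and CD14 among those at 0, 1.67 to 7.36 CPM) and endothelium 2 of 4 (VWF and CDH5 at 0, 1.05 to 4.08 CPM). Intervals cover counting error only.

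Of 13703 genes tested, 3316 fell (24.2%) and 3149 rose (23.0%), with a median slope of -0.037 log2 per hour. Counts of gene lists below, under this scaling, are to be read beside these shares. Genes could enter the test through the MIR211 line. Of those tested, 188 had A375 counts below 10, and 29 of them fell and 10 rose. Among the lists, those of immediate early, ERK output and ZNF genes had low medians, and those of glycolysis, the cytoskeleton and the lysosome high ones. The fall was not even in time. Among the falling genes the median step of log2(CPM + 0.5) was -0.14 from 0 to 1 h, -1.07 from 1 to 3 h and -0.88 from 3 to 6 h. Per hour this is -0.54 in the middle interval and -0.29 in the last. The added 0.5 shrinks steps between low levels, and its part in the slower last interval was not tested. In 1818 of them (54.8%) the level went down at every step, while 1200 (36.2%) stood higher at 1 h than at 0 h, and 236 had a count of 0 at 6 h. Among the rising genes the steps were 0.17, 0.69 and 1.01, and 2067 (65.6%) went up at every step.

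**Figure D1:**
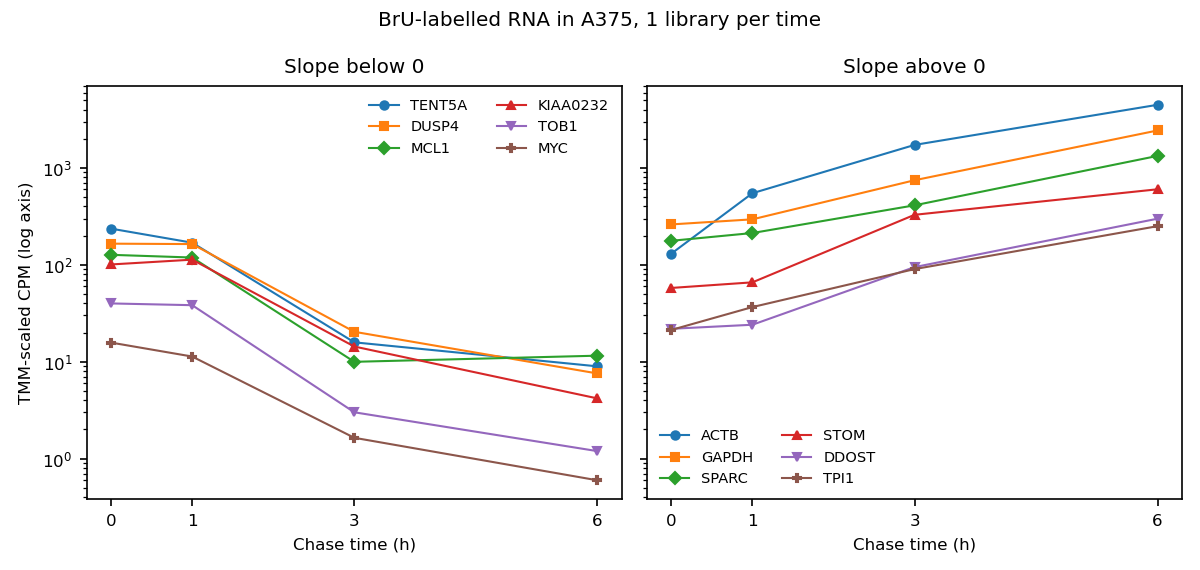
TMM-scaled CPM of 12 named genes (log axis) against hours of chase in the 4 A375 libraries, 1 point per library. The 6 genes on the left were lower at 3 and 6 h than at 0 and 1 h (DUSP4 165, 164, 20.4 and 7.56 CPM), and the 6 on the right were higher at 3 and 6 h than at 0 h (GAPDH 261, 295, 746 and 2438 CPM).

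Among the genes that passed and whose average log2 CPM was 5 or more, the steepest fall was that of BTG1, which slows proliferation and brings the CCR4-NOT deadenylase to mRNAs (chromosome 12, 92140278 to 92145846). It stood at 72.3, 55.7, 0.956 and 0 CPM at 0, 1, 3 and 6 h, from 248, 266, 7 and 0 counts. Levels were high through 1 h and close to nothing from 3 h on. With the counting error of both libraries the 6 h level was at least 97.8-fold lower than at 0 h (lower 95% limit), and the slope was -2.07 (SE 0.29, adjusted p = 0.00226). TP53INP1, a p53-induced regulator of autophagy and cell death, followed with 61.2, 59.9, 21.2 and 0 CPM and a slope of -1.07 (SE 0.24, adjusted p = 0.0107). Its 210, 286, 155 and 0 counts end in a 0 after 155, and it is 1 of 8 genes tested with 1 A375 library at 0 and the other 3 at 50 counts or more, so its 6 h value stands apart.

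Next came PLAG1, a zinc finger transcription factor, with a slope of -0.95 (74.6, 58.4, 5.60 and 2.19 CPM). KIAA0232, a gene of unclear function (chromosome 4, 6781375 to 6884170), went from 101 and 113 CPM at 0 and 1 h to 14.3 and 4.18 CPM at 3 and 6 h, 24.1-fold lower at 6 h than at 0 h (95% interval 15.5 to 39.5). TENT5A, a non-canonical poly(A) polymerase, stood at 236, 169, 15.8 and 8.95 CPM, with its main loss between 1 and 3 h. CEP85L, a centrosomal protein, lost a larger part already in the opening hour (96.2, 60.5, 10.2 and 3.58 CPM, slope -0.84, SE 0.11, adjusted p = 0.00169). FLRT3, an adhesion receptor whose coding sequence lies in a single exon, had 81.9, 67.6, 8.06 and 3.58 CPM. KLHL15, a substrate adaptor of a CUL3 ubiquitin ligase, had 90.4, 92.1, 10.2 and 4.38 CPM, and PPM1D, a phosphatase that damps the p53 response, 109, 131, 23.2 and 5.17 CPM. DUSP4, which dephosphorylates ERK in the nucleus, had 165, 164, 20.4 and 7.56 CPM. In all 10 the 3 h and 6 h libraries lay below both the 0 h and 1 h libraries. PPM1D at -0.823 was the last of the 10 and ZNF281 at -0.807 the next in order.

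Immediate early genes, the transcription factors and signals switched on within minutes of a stimulus, fell as a group: of 31 listed, 19 had enough counts, and 16 fell and 0 rose, with a median slope of -0.58 against -0.037 over all genes. MYC, the growth-promoting transcription factor (chromosome 8, 127735434 to 127742951), stood at 15.7, 11.3, 1.64 and 0.597 CPM, 26.4-fold lower at 6 h than at 0 h (95% interval 8.56 to 132), with a slope of -0.88 (SE 0.13, adjusted p = 0.00258). The kinase SGK1 had 49.0, 58.8, 15.2 and 5.97 CPM and the orphan nuclear receptor NR4A2 14.6, 11.7, 2.87 and 1.79 CPM. Both were lowest at 6 h. FOS and JUN, the AP-1 subunits, could not be tested, with 6, 11, 10 and 2 counts for FOS and 0, 2, 1 and 0 for JUN in the chase, while the 2 A375 RNA-seq libraries held 2359 and 2795 counts of FOS and 1007 and 917 of JUN. Without the 0 h library 9 immediate early genes fell, and without the 1 h library 7. In a fit of the A375 libraries alone, whose filter asks for enough counts in all 4 of them, 9 were tested and 8 fell.

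ERK feedback and output genes fell too, 12 of 19 tested (21 listed) with 1 rising and a median of -0.41. Beside DUSP4 these include PHLDA1, a regulator of cell survival, at 264, 252, 34.6 and 16.1 CPM (slope -0.75, SE 0.13, adjusted p = 0.00471), and SPRED1, which blocks the step from RAS to RAF, at 149.9, 155, 59.4 and 20.7 CPM (slope -0.52, SE 0.07, adjusted p = 0.00169). SPRED1 kept its level through 1 h and was 7.24-fold lower at 6 h. The falling lists with the most genes were those of zinc finger (ZNF) genes, a family with many transcriptional repressors. Of the ZNF genes on chromosome 19, where they stand in clusters, 190 of 246 were tested, 139 fell and 0 rose, with a median of -0.52. Of those elsewhere, 191 of 262 were tested, 132 fell and 2 rose, with a median of -0.42. ZNF208 was at 78.1, 65.5, 20.2 and 5.97 CPM (slope -0.65, SE 0.06, adjusted p = 0.000636), ZNF772 at 45.2, 46.3, 10.9 and 3.38 CPM and ZNF780A at 54.5, 33.7, 12.2 and 5.17 CPM. Off chromosome 19, ZNF860 was at 34.4, 31.0, 11.1 and 2.98 CPM and ZNF521 at 28.9, 21.1, 11.1 and 2.98 CPM, and the slope of ZNF674 was -0.60. ZNF genes are close relatives, so reads that fit several of them make single values uncertain. On chromosome 19, 73 fell without the 0 h library and 93 without the 1 h library. The A375 libraries alone gave 68 falling of 85 there and 81 of 112 elsewhere, with 0 rising in both.

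**Figure D2:**
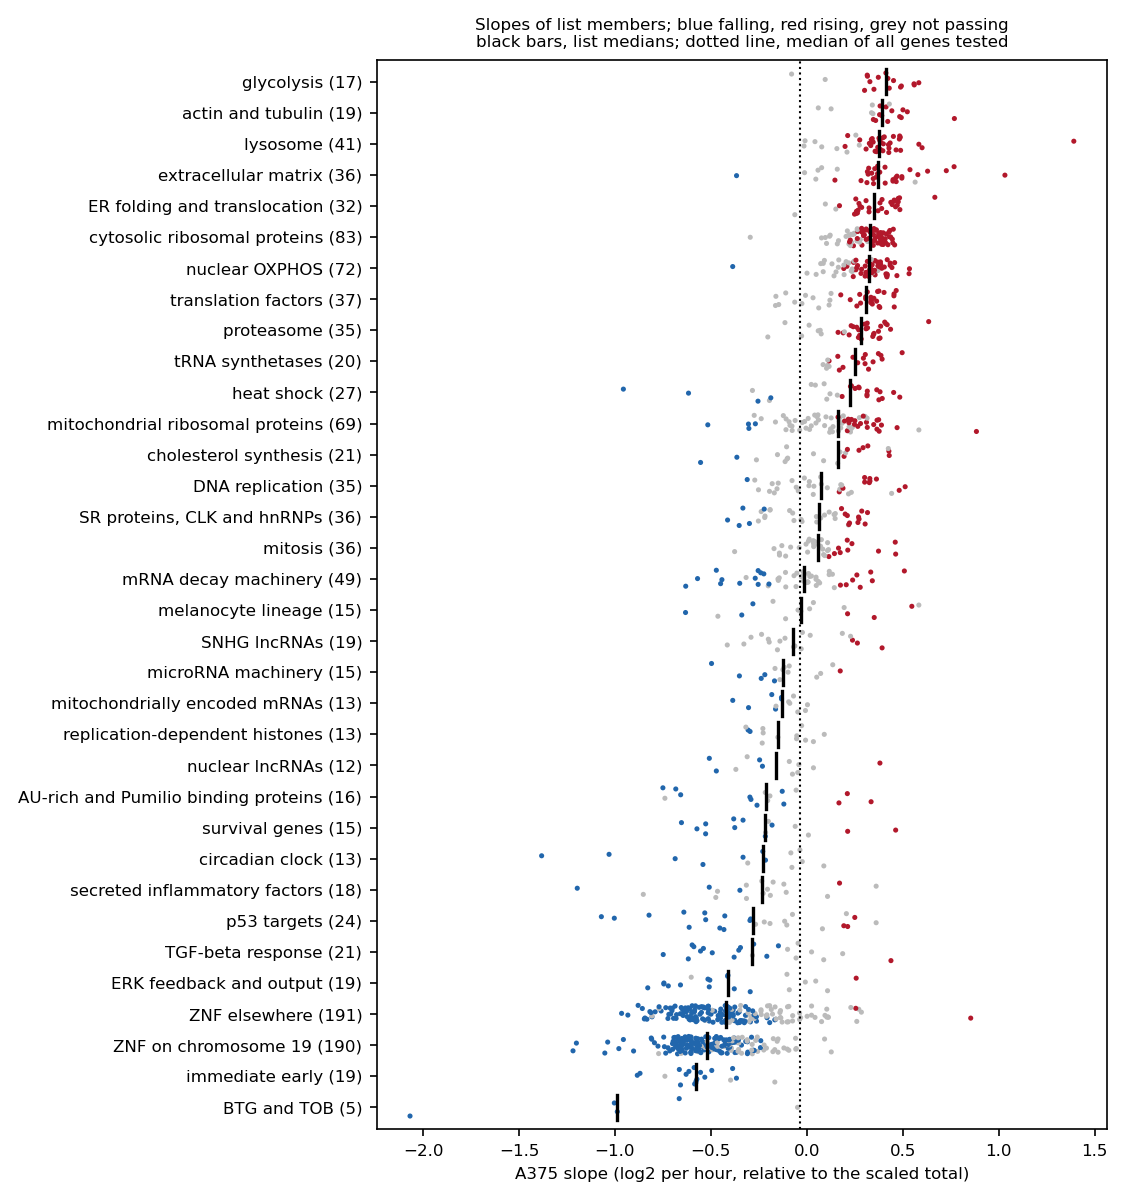
A375 slopes (log2 per hour) of the members of 34 gene lists, with the number tested in brackets, sorted by median; black bars are medians and the dotted line is the median of all genes. BTG and TOB, immediate early and ZNF genes lie furthest left (-0.99 to -0.42) and glycolysis furthest right (0.41).

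Genes of the decay pathway itself form several of the lists. Of the BTG and TOB adaptors of deadenylation 5 of 6 were tested, and 4 fell and 0 rose (median -0.99). Leaving out the 0 h library gave 2 falling, and the A375 libraries alone kept 1 for testing, which did not pass. TOB1 stood at 39.9, 38.3, 3.01 and 1.19 CPM and TOB2 at 22.5, 22.2, 2.19 and 2.19 CPM, so that both, like BTG1, were lost mainly between 1 and 3 h. Proteins that bind AU-rich elements or Pumilio sites gave 8 falling (50%) and 3 rising (18.75%) of 16 tested (19 listed, median -0.21), against 24.2% and 23.0% of all genes. ZFP36L2, which brings AU-rich mRNAs to deadenylation and has a TTATTTATT of its own, had 56.3, 44.2, 9.43 and 3.98 CPM, and CPEB2, a translational regulator, 31.2, 29.1, 6.56 and 2.59 CPM. HNRNPD, which also binds AU-rich elements, went up instead, 110.5, 96.5, 156 and 241 CPM (slope 0.21, SE 0.04, adjusted p = 0.00698), although it stood at -0.24 when the glycolysis genes were held constant. The wider decay machinery gave 12 falling (24.5%) and 8 rising (16.3%) of 49 tested (52 listed, median -0.017), a share of falls near the 24.2% of all genes. CNOT4, a ubiquitin ligase of the CCR4-NOT complex, was at 75.8, 63.6, 20.9 and 6.17 CPM (slope -0.63, SE 0.07, adjusted p = 0.000974) and the decapping factor DCP1B at 41.1, 33.5, 10.4 and 4.38 CPM. SKIC3, a scaffold of the complex that feeds RNA to the exosome, was at 242, 307, 454 and 978 CPM, 4.04 times its 0 h level at 6 h (95% interval 3.75 to 4.36). Without the 1 h library 5 of the AU-rich and Pumilio binding list fell, and the wider machinery gave 7 falling and 4 rising. The microRNA machinery gave 5 falling (33.3%) and 1 rising (6.67%) of 15 tested (16 listed, median -0.12), against 24.2% and 23.0% of all genes. DICER1, which cuts microRNA precursors, was at 224, 219.6, 175 and 92.5 CPM. LIN28B, which blocks let-7 maturation, was at 49.0, 49.2, 17.1 and 7.36 CPM, and XPO5, which exports the precursors, at 123, 148, 194 and 257 CPM. Without the 1 h library 2 of this list fell and without the 3 h library 3, without the 0 h library 0 rose, and with the A375 libraries alone 9 fell. XPO5 rose (slope 0.17) but stood at -0.28 with glycolysis held constant, and SKIC3, with a slope of 0.33, stood at -0.12 there.

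Survival genes gave 9 falling (60%) and 2 rising (13.3%) of 15 tested (23 listed, median -0.22), against 24.2% and 23.0% of all genes. MCL1, a short-lived guard against apoptosis, stood at 127, 119, 9.97 and 11.5 CPM, with the 3 h and 6 h libraries alike and both far below the earlier ones (slope -0.65, SE 0.19, adjusted p = 0.026). BCL2 had 8.75, 7.33, 3.01 and 1.99 CPM, and BIRC2, an inhibitor of apoptosis with ubiquitin ligase activity, 57.7, 65.9, 37.2 and 13.7 CPM. PMAIP1, which counteracts MCL1, had 18.4, 18.6, 8.61 and 2.19 CPM and counts also among the p53 targets. Of these targets 12 of 24 tested fell (50%) and 3 rose (12.5%), with 26 listed and a median of -0.28. SESN1, a stress sensor that restrains mTORC1, was at 108, 82.5, 34.7 and 8.75 CPM (slope -0.61, SE 0.08, adjusted p = 0.00206) and TIGAR, a brake on glycolysis, at 38.8, 41.2, 20.8 and 6.57 CPM. Leaving out the 0 h library gave 1 rising in each of these lists, and leaving out the 1 h library gave 0 in both. The A375 libraries alone gave 1 riser in each.

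Genes of the TGF-beta response gave 13 falling (61.9%) and 1 rising (4.76%) of 21 tested (25 listed, median -0.28), against 24.2% and 23.0% of all genes. SKIL, a feedback repressor of SMAD proteins, stood at 139.7, 186, 58.3 and 18.9 CPM, above its starting level at 1 h, and BMPR1A, a receptor for bone morphogenetic proteins, at 48.4, 60.7, 29.2 and 12.1 CPM. LTBP1, which anchors latent TGF-beta in the matrix, was the riser at 7.58, 10.9, 23.0 and 47.6 CPM; with the glycolysis genes held constant its slope was -0.014. Without the 1 h library 8 TGF-beta response genes fell. Circadian clock genes gave 7 falling (53.8%) and 0 rising of 13 tested (18 listed, median -0.23). Those that fell included the repressor NFIL3 at 7.87, 4.40, 0.410 and 0 CPM. TEF was at 4.96, 2.72, 0.683 and 0 CPM and CLOCK at 101, 98.0, 56.2 and 27.3 CPM, and both also fell. NFIL3 rests on only 27, 21, 3 and 0 counts and TEF on 17, 13, 5 and 0. Without the 0 h, the 1 h or the 3 h library 4 clock genes fell. Of 18 secreted inflammatory factors tested (23 listed, median -0.23), 3 fell (16.7%) and 1 rose (5.56%), against 24.2% and 23.0% of all genes. Those that fell included the cytokines LIF (7.87, 7.75, 4.78 and 0.796 CPM, from 27, 37, 35 and 4 counts) and IL1A (10.5, 12.6, 5.47 and 2.98 CPM). IL1B passed on 3, 3, 0 and 0 counts, too few to describe its course. IL1B entered the test through the MIR211 line, where it had 156, 154, 289 and 113 counts, and without it 2 of the list fell. Without the 3 h library 5 fell, and without the 1 h library, or with the A375 libraries alone, 0 rose.

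Melanocyte lineage genes gave 3 falling and 3 rising of 15 tested (23 listed, median -0.031), shares near the 24.2% and 23.0% of all genes. Without the 0 h, the 1 h or the 3 h library 1 fell, and 1 rose without the 1 h library or with the A375 libraries alone. MITF, the master regulator of the lineage, stood at 58.0, 47.7, 41.8 and 17.1 CPM, 3.39-fold lower at 6 h (95% interval 2.62 to 4.42, slope -0.28, SE 0.07, adjusted p = 0.0194). PAX3, a factor upstream of it, had 4.08, 6.91, 1.64 and 0.398 CPM from only 14, 33, 12 and 2 counts. SOX10 had 176, 186, 56.2 and 31.4 CPM and a slope of -0.46 (SE 0.18, adjusted p = 0.0615), which missed the threshold. DCT, an enzyme of melanin synthesis, had 6.41, 5.23, 9.97 and 23.5 CPM and rose (slope 0.35, SE 0.07, adjusted p = 0.00805), and its slope was -0.10 with the glycolysis genes held constant.

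**Figure D3:**
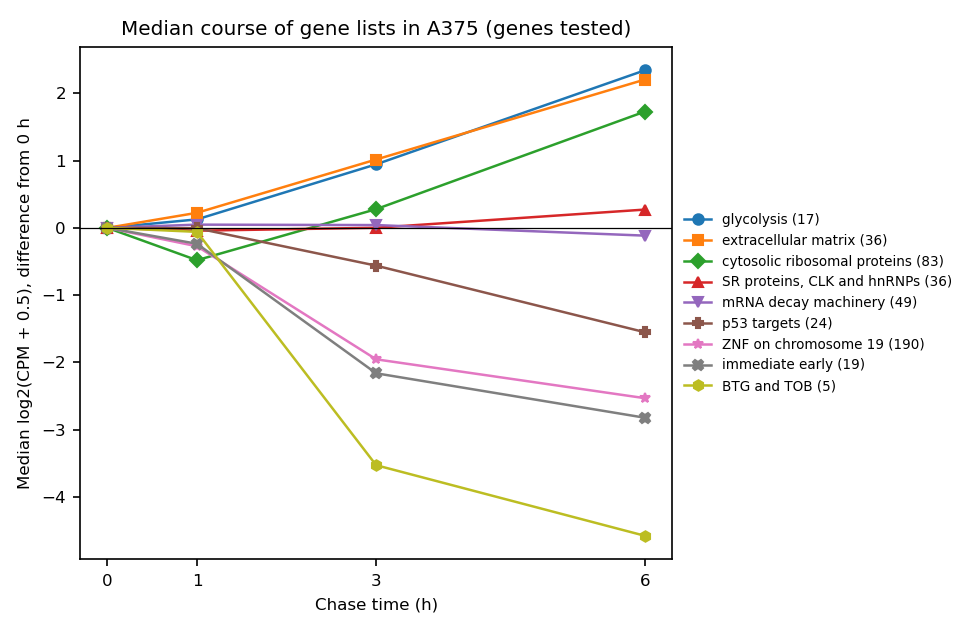
Median difference in log2(CPM + 0.5) from 0 h for 9 gene lists over the A375 chase, with the number of genes tested in brackets. BTG and TOB, immediate early and chromosome 19 ZNF genes drop mostly between 1 and 3 h (median steps of -3.31, -1.95 and -1.66), and ribosomal protein genes dip at 1 h before they climb.

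At the other end, the steepest rise among passing genes with a symbol and average log2 CPM of at least 5 was that of ACTB. This cytoplasmic actin (chromosome 7, 5526409 to 5563902) stood at 131, 548, 1728 and 4486 CPM. Each library was above the one before, the 6 h level was 34.3 times that of 0 h (95% interval 31.3 to 37.8), and the slope was 0.77 (SE 0.16, adjusted p = 0.0084). DDOST, a subunit of the oligosaccharyltransferase that glycosylates proteins in the endoplasmic reticulum, stood at 21.9, 24.1, 94.7 and 299 CPM (slope 0.67, SE 0.07, adjusted p = 0.000993). STOM, the membrane protein stomatin, had 57.7, 65.9, 328 and 602 CPM, and SERPINA3, a secreted protease inhibitor, 74.6, 60.7, 216 and 763 CPM. INTS1, the scaffold of the Integrator complex, went from 22 counts at 0 h to 656 at 6 h (6.41, 26.0, 38.5 and 131 CPM). The glycolytic enzyme TPI1 had 21.3, 36.6, 90.3 and 251 CPM, the actin regulator CAP1 113, 126, 435 and 1009 CPM, the secreted glycoprotein LGALS3BP 9.91, 19.3, 37.0 and 116 CPM, and the aldolase ALDOC 11.7, 12.8, 29.8 and 108 CPM. GAPDHP1 (10.2, 8.58, 26.2 and 86.6 CPM) is a pseudogene of GAPDH, and its reads may be those of GAPDH. ALDOC at 0.560 was the last of the 10 and GAPDH at 0.559 the next in order. With the glycolysis genes held constant, all 10 kept a slope above 0, from 0.11 for LGALS3BP to 0.31 for ACTB, and DDOST was the member that still passed. TPI1 is itself among the genes held constant. The 10 were picked as the steepest, above the glycolysis median of 0.41, so their sign there follows in part from the choice.

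Glycolysis was the list furthest to the right, with 15 of 17 genes rising and 0 falling (19 listed, median 0.41). GAPDH (chromosome 12, 6534512 to 6538374) stood at 261, 295, 746 and 2438 CPM (slope 0.56, SE 0.03, adjusted p = 0.000325) and PGK1 at 265, 299.6, 635 and 1887 CPM, both higher in each library than in the one before. How much of a rise is seen depends on the scaling, and the rising groups are given with both. Where the summed glycolysis genes were held constant, the median slope of all genes moved by -0.45, 10334 genes fell (75.4%) and 8 rose (0.0584%). List counts under that scaling, here and below, are to be read beside this 75.4%. Cytosolic ribosomal protein genes gave 59 rising and 0 falling of 83 tested (88 listed, median 0.33). With glycolysis held constant 16 fell and 0 rose, where 75.4% of all genes fell. RPS4X stood at 219, 211, 408 and 1205 CPM, RPL5 at 109, 107, 214 and 534 CPM and RPL15 at 138, 238, 374 and 800.3 CPM. The group's median step from 0 to 1 h was -0.48, so that a dip came before the climb of 0.75 and 1.47. Without the 1 h library, where the dip lies, 39 rose. Many ribosomal protein genes have processed pseudogenes that share their reads.

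Nuclear OXPHOS genes, which encode the respiratory chain subunits made outside the mitochondrion, gave 49 rising and 1 falling of 72 tested (75 listed, median 0.32). With glycolysis held constant 17 fell and 0 rose, where 75.4% of all genes fell. ATP5F1B stood at 158, 186, 299.8 and 881 CPM and ATP5PB at 96.5, 99.9, 185 and 509.8 CPM. Mitochondrial ribosomal protein genes lay nearer to the middle, with 21 rising (30.4%) and 4 falling (5.80%) of 69 (78 listed, median 0.16). The shares of all genes were 23.0% and 24.2%. With glycolysis held constant 44 fell and 0 rose. MRPL13 had 38.5, 30.4, 66.1 and 150.4 CPM and MRPL37 15.7, 16.7, 25.1 and 55.7 CPM, and the slope of MRPL39 was 0.31. Without the 1 h library 32 nuclear OXPHOS and 10 mitochondrial ribosomal protein genes rose, and without the 0 h library 11 of the latter. Of the mitochondrial ribosomal protein genes 1 fell without the 1 h library. Translation factors gave 25 rising and 0 falling of 37 (median 0.31), and 17 fell and 0 rose with glycolysis held constant. Among them were EIF2S3 at 288, 341, 548 and 1138 CPM, EIF3I at 77.3, 81.6, 172 and 472 CPM and the poly(A) binding protein PABPC1 at 381, 446, 775 and 1792 CPM. Of the tRNA synthetases 15 of 20 rose and 0 fell (median 0.25), and 12 fell and 0 rose with glycolysis held constant. LARS1 went through 464, 619, 910.1 and 2004 CPM and EPRS1 through 355, 522, 889 and 1883 CPM, and the slope of IARS1 was 0.37.

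Genes of secretory and degradative compartments rose as well. Genes of folding and translocation in the endoplasmic reticulum gave 29 rising and 0 falling of 32 (median 0.35). With glycolysis held constant 10 fell and 1 rose, where 75.4% of all genes fell. The chaperone HSP90B1 stood at 462, 682, 1011 and 3010 CPM, the disulfide isomerase PDIA6 at 134, 163, 327 and 909 CPM and the oligosaccharyltransferase subunit RPN2 at 121, 153, 296 and 883 CPM. Lysosome genes gave 33 rising and 0 falling of 41 (42 listed, median 0.38), and 8 fell and 1 rose with glycolysis held constant. CTSK, 1 of the 33, had A375 counts below 10, too few to describe its course. PSAP, the precursor of the saposins, was at 108, 122, 250.5 and 754 CPM and ATP6AP2, an accessory subunit of the proton pump, at 41.4, 58.4, 96.3 and 321 CPM. Extracellular matrix genes gave 29 rising and 1 falling of 36 (42 listed, median 0.37), and 8 fell and 0 rose with glycolysis held constant. The matrix glycoprotein SPARC was at 177, 213, 411 and 1332 CPM, the basement membrane linker NID1 at 182, 238, 476 and 1395 CPM and the laminin chain LAMC1 at 581, 777, 1220 and 2745 CPM. Fibroblast markers, some of them matrix genes, summed to 2.92 CPM at 0 h and 14.3 CPM at 6 h beside this, and their part in the result was not tested.

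Proteasome genes gave 27 rising and 0 falling of 35 (39 listed, median 0.28). With glycolysis held constant 19 fell and 0 rose, where 75.4% of all genes fell. PSMD1 was at 153, 195, 288 and 544 CPM, PSMD2 at 55.1, 78.5, 139 and 312 CPM and PSMB2 at 54.2, 63.0, 129 and 314 CPM. Actin and tubulin genes gave 13 rising and 0 falling of 19 (20 listed, median 0.39), and 2 fell and 0 rose with glycolysis held constant. TUBA1B stood at 223, 328, 573 and 1721 CPM, TUBA1A at 61.2, 103, 211 and 570.5 CPM and the intermediate filament VIM at 248, 291, 562 and 1366 CPM. TUBA1A and TUBA1B are near-identical, so their split of reads is uncertain. Heat shock genes were mixed, with 15 rising and 4 falling of 27 (28 listed, median 0.23), and 19 fell and 0 rose with glycolysis held constant. The chaperones HSP90AB1 (841, 1104, 1947 and 4299 CPM), HSP90AA1 (857, 1126, 1947 and 4086 CPM) and HSPD1 (252, 269, 488 and 1157 CPM) were among those that rose.

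Several lists had medians closer to that of all genes, but their shares of falls were below the 24.2% of all genes. Mitosis gave 10 rising (27.8%) and 0 falling of 36 (median 0.057), against 23.0% and 24.2% of all genes. With glycolysis held constant 32 fell and 0 rose, where 75.4% of all genes fell. PTTG1, the securin, was at 25.4, 35.6, 67.2 and 174 CPM, CDC20, which activates the anaphase-promoting complex, at 8.75, 10.7, 20.9 and 40.0 CPM, and the cyclin CCNB2 at 23.6, 31.6, 43.2 and 65.7 CPM. Without the 0 h library 3 mitosis genes rose, and without the 1 h library, or with the A375 libraries alone, 5. DNA replication gave 10 rising (28.6%) and 1 falling (2.86%) of 35 (36 listed, median 0.076), and 22 fell and 0 rose with glycolysis held constant. The polymerase POLE was at 36.4, 47.7, 82.9 and 143 CPM, the helicase subunit MCM7 at 28.9, 32.5, 65.2 and 105 CPM and the ribonucleotide reductase RRM1 at 80.2, 99.0, 156 and 279.8 CPM. Splicing regulators (SR proteins, CLK kinases and hnRNPs) gave 11 rising (30.6%) and 5 falling (13.9%) of 36 (median 0.062), and 33 fell and 0 rose with glycolysis held constant. The risers with the smallest p were hnRNPs, HNRNPM at 139.7, 163, 240.1 and 488 CPM, HNRNPK at 185, 181, 282 and 645 CPM and HNRNPA2B1 at 1236, 1286, 1972 and 3659 CPM. Cholesterol synthesis gave 7 rising (33.3%) and 2 falling (9.52%) of 21 (23 listed, median 0.16), and 15 fell and 0 rose with glycolysis held constant. Within it the sterol oxidase MSMO1 fell (43.4, 44.4, 17.6 and 4.97 CPM), while the thiolase ACAT2 (54.8, 76.8, 132 and 334 CPM) and the transcription factor SREBF2 (41.4, 46.7, 82.1 and 148 CPM) rose. Of the list 4 rose without the 0 h library, and with the A375 libraries alone 5 rose and 4 fell.

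RNA without a protein product was not of a kind. Of 1246 lncRNA genes tested 413 fell (33.1%) and 83 rose (6.66%), with a median slope of -0.25, and protein coding genes gave 2556 and 2559 of 10822 with a median of -0.016. MALAT1, a nuclear lncRNA of speckles (chromosome 11, 65497640 to 65508073), climbed through 5900, 8344, 14230 and 29452 CPM (slope 0.38, SE 0.02, adjusted p = 0.000325), but had a slope of -0.070 with the glycolysis genes held constant. NEAT1, the scaffold of paraspeckles, was at 1659, 1718, 1733 and 1931 CPM, with a slope of 0.034 (SE 0.02, adjusted p = 0.268) that did not pass and was -0.11 with total counts. KCNQ1OT1, an imprinted antisense RNA, fell from 110 to 14.7 CPM (slope -0.51, SE 0.10, adjusted p = 0.00672), and FTX was at 50.7, 44.4, 21.7 and 7.56 CPM. Of 12 nuclear lncRNAs tested (16 listed, median -0.16) 4 fell (33.3%) and 1 rose (8.33%), against 24.2% and 23.0% of all genes. Of this list 2 fell without the 1 h library, and 7 fell with the A375 libraries alone. The SNHG genes, whose introns carry small nucleolar RNAs, gave 0 falling and 3 rising (15.8%) of 19 tested (34 listed, median -0.070). With glycolysis held constant 15 fell and 0 rose, where 75.4% of all genes fell. SNHG14 was at 388, 389, 486 and 1011 CPM, SNHG29 at 31.5, 24.5, 34.8 and 141 CPM and SNHG32 at 10.8, 7.96, 11.5 and 27.9 CPM. Without the 1 h library 1 SNHG gene rose, without the 3 h library 1 fell, and with the A375 libraries alone 2 rose and 3 fell.

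Processed pseudogenes, which are copies of spliced mRNAs, gave 427 rising (46.6%) and 114 falling of 916 tested, with a median of 0.23. With glycolysis held constant 434 fell and 0 rose (median -0.22), where 75.4% of all genes fell. Other pseudogenes gave 39 rising and 110 falling of 397 (median -0.15). Reads of a processed pseudogene cannot be told apart from those of its parent where the copies match. Mitochondrially encoded mRNAs gave 6 falling (46.2%) and 0 rising of 13 (median -0.13), against 24.2% and 23.0% of all genes. Without the 0 h library, however, 0 fell. MT-ND2, a subunit of complex I, was at 5768, 4449, 2013 and 1677 CPM (slope -0.30, SE 0.07, adjusted p = 0.00976), MT-CYB at 8154, 6752, 4540 and 4140 CPM and MT-CO3 at 5751, 4929, 3661 and 3309 CPM. As a share of raw counts these mRNAs went from 13.6% at 0 h (95% Wilson interval 13.6 to 13.7) to 11.3% (11.3 to 11.3), 7.91% (7.89 to 7.94) and 5.39% (5.38 to 5.41) at 6 h. Unlike the CPM and slopes, this share is not scaled by TMM, and its total includes the growing MT-RNR2. The 2 mitochondrial rRNAs both rose, with slopes of 0.36 and 0.46, but did not pass with glycolysis held constant (-0.092 and 0.0079). Of 19 mitochondrial tRNAs 3 fell (15.8%, against 24.2% of all genes) and 0 rose. Replication-dependent histone genes, whose mRNAs mostly lack poly(A) tails, were thinly covered, with 13 of 64 tested, 2 falling (15.4%) and 0 rising (median -0.15). Without the 0 h, the 1 h or the 3 h library 1 histone gene fell. H4C15 had 22.5, 14.7, 11.5 and 5.77 CPM and H2BC18 7.58, 6.49, 3.14 and 2.39 CPM, whereas H2BC8 at 17, 32, 45 and 6 counts did not pass (adjusted p = 0.132).

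Some genes did not follow a straight course. LUZP1 fell over the chase but stood at 53.4, 156, 34.7 and 15.9 CPM, a peak at 1 h. The same peak was seen for NUDT4 (28.6, 68.7, 21.7 and 11.3 CPM), CEP97 (55.1, 116, 30.1 and 21.1 CPM), TSC22D1 (32.9, 66.6, 21.0 and 11.3 CPM) and TTPAL (39.9, 76.0, 44.5 and 10.7 CPM). In the other direction, ARF1, a GTPase of vesicle budding, rose over the chase but dipped at 1 h (40.8, 12.4, 121 and 212 CPM). RPS2 (36.4, 14.7, 51.2 and 171 CPM), SLC44A2 (18.4, 7.33, 45.2 and 77.4 CPM), RPS27L (65.0, 31.2, 66.4 and 174 CPM) and MOCS2 (33.5, 16.7, 25.7 and 82.4 CPM) dipped likewise. These 10 were picked for the size of their step from 0 to 1 h, and each peak or dip rests on the 1 h library alone.

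Slope went with the build of the transcript, which the fit did not use. Across the 10822 protein coding genes, the number of exon junctions per kb of coding sequence had a Spearman correlation of 0.45 (Pearson 0.46) with the A375 slope, and 0.41 (Spearman) with the slope of the MIR211 line. Genes are not independent replicates and share these libraries, so the correlations are descriptions. With the genes in 5 bins of equal size by slope, the median from the lowest bin to the highest was 2.67, 5.48, 6.51, 7.02 and 7.20 junctions per kb. Among 546 genes with no coding junction 296 fell (54.2%) and 47 rose (8.61%), with a median of -0.43, against 22.0% falling and a median of -0.0020 in the other 10276. Without ZNF genes the Spearman correlation was 0.42, among genes with at least 1 coding junction 0.42, both chosen after seeing the data. Among genes with a mean of at least 20 CPM it was 0.41.

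Untranslated regions were longer at the falling end. The median 3′ UTR was 2087, 2009, 1712, 1329.5 and 755 bases from the lowest to the highest bin (Spearman -0.28), and the 5′ UTR went from 200 to 98 bases (Spearman -0.24). GC at the third codon position was 50.3% in the lowest bin and 62.4% in the highest (Spearman 0.20), and coding length had a Spearman correlation of -0.076. Average log2 CPM went along, from 3.56 in the lowest bin to 4.66 in the highest (Spearman 0.18), and its part in these relations was not tested. TTATTTATT was found in the 3′ UTR of 15.2% of genes in the lowest bin and 5.82% in the highest, and TGTANATA in 43.3% and 16.7%. Of the 1140 genes with TTATTTATT 34.4% fell and 15.4% rose (median -0.14, against -0.0020 without it), and of the 3644 with TGTANATA 32.7% fell and 13.9% rose (median -0.12, against 0.044). Long 3′ UTRs hold more matches of any kind. Per kb of 3′ UTR, TTATTTATT matches numbered 0.084, 0.064, 0.066, 0.057 and 0.063 from the lowest bin to the highest. Those of TGTANATA numbered 0.286, 0.279, 0.255, 0.206 and 0.167. Within 3′ UTRs of 1000 to 2000 bases, a window chosen after seeing the data, the medians were -0.14 with TTATTTATT (204 genes) and -0.031 without (2254 genes), and -0.11 with TGTANATA (749 genes) and -0.0014 without (1709 genes).

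**Figure D4:**
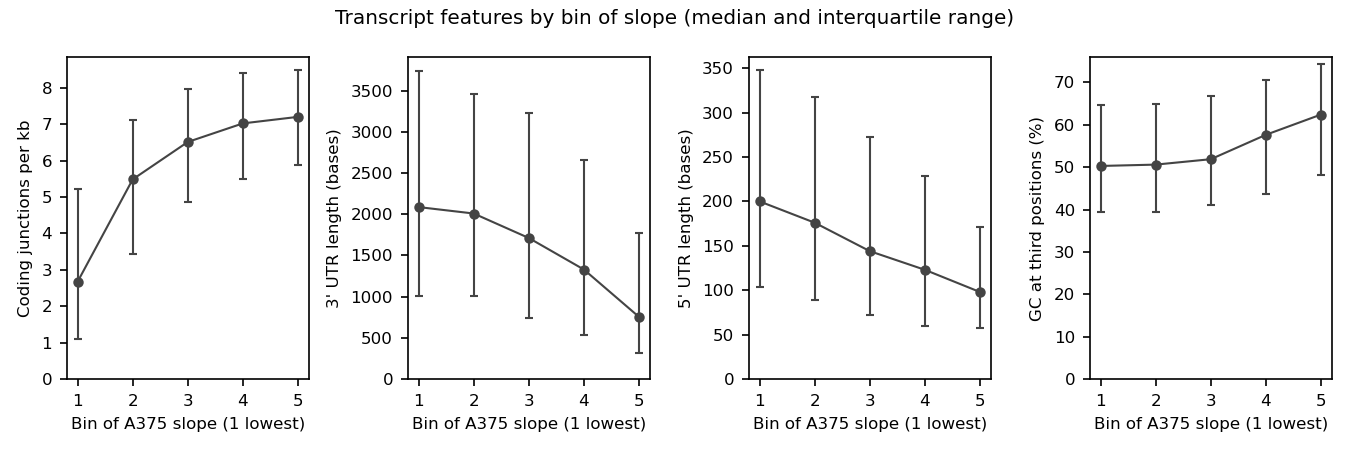
Transcript features of protein coding genes in 5 bins of A375 slope, from the lowest (1) to the highest (5); points are medians and bars span the interquartile range. Coding junctions per kb climb from 2.67 to 7.20 and the 3′ UTR shortens from 2087 to 755 bases, with wide overlap between bins.

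Genes that fell had lower medians at steady state. In the 2 A375 RNA-seq libraries, which the slopes did not use, the median level per length of transcript was 4.21 and 3.94 CPM per kb for the falling genes, 21.6 and 23.6 for the rising genes and 6.90 and 6.90 for all genes tested.

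The MIR211 line was measured in 4 libraries of its own. Its slope was below 0 for 3281 of the 3316 genes that fell in A375 and above 0 for 3119 of the 3149 that rose, and 2302 and 2545 of them passed in the same direction there. The difference of the slopes was tested for all 13703 genes. With edgeR 0 passed, 527 had an unadjusted p under 0.05, and DESeq2 called 14. With libraries of the same hour paired across the lines, edgeR called 1, LAPTM4B, a lysosomal membrane protein named here after its values were seen, with a slope of 0.16 in A375 and 0.86 in the MIR211 line (adjusted p = 0.0117). Of the genes named here, BTG1 was among those 14 (DESeq2 adjusted p = 0.00326), with a slope of -2.07 in A375 and -0.61 in the MIR211 line. There BTG1 was at 193, 139, 24.2 and 17.7 CPM, and it kept a count at 6 h. ARF1 had a slope of 0.50 in A375 and -0.068 in the MIR211 line, a difference that did not pass (edgeR adjusted p = 1.00). Of the 126 named genes that passed in A375, 125 had the same sign in the MIR211 line and 112 passed there in the same direction.

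**Figure D5:**
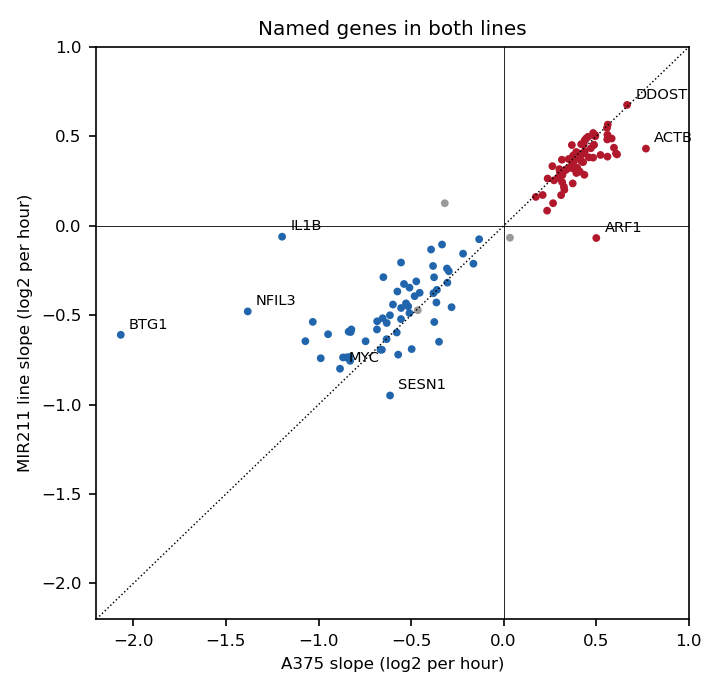
Slopes of the named genes in A375 (x axis) and in the MIR211 line (y axis), in log2 per hour; blue fell, red rose and grey did not pass in A375, and the dotted line marks equal slopes. Of the 126 genes that passed in A375, 125 have the same sign in both lines, and BTG1 (-2.07 and -0.61) lies furthest to the left of it.

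All of these calls rest on lines through 4 single libraries, whose spread was estimated together with that of the MIR211 line. Without the 6 h library no gene passed with edgeR (2253 falling and 1794 rising at an unadjusted p under 0.05), and without the 0 h or the 1 h library 2045 and 2062 genes fell. Scaling by total counts gave 5406 falling (39.5%) and 1293 rising (9.44%), so that 80.7% of the calls were falls against 51.3% with TMM, with a shift of the median slope by -0.15. Total counts without mitochondrial genes gave 72.6% falls and a shift of -0.11.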

How the data were processed

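The authors deposited a table of raw read counts per Ensembl gene, with no normalization, for the 8 BRIC-seq libraries, and another for RNA-seq. Per the submitters' processing notes reads were aligned with HISAT2 2.1.0, with StringTie also named; for strand and multi-mapping, settings were not given in the sources used here. The notes name hg19 and the design text hg38, so coordinates and transcripts come from GENCODE 44 (hg38), which held 93.2% of the 60675 gene IDs. A row naming no gene (0.000112% to 0.0011% of A375 counts) entered neither library sizes nor tests.

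Counts were fitted with edgeR 4.0.16 (R 4.3.3, quasi-likelihood F test, TMM, filterByExpr by line with a minimum count of 10 and total of 15), with an intercept and a slope over hours per line on all 8 BRIC-seq libraries (4 residual degrees of freedom), and Benjamini-Hochberg adjustment over 13703 genes. DESeq2 1.42.0 was an alternative, with others of scaling, filter, libraries and time scale. SE is the size of the slope divided by the square root of F. The script was tested on simulated data. Intervals of ratios are exact at 95%.

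Members and lists were chosen with earlier results of these data known. Named were the 10 steepest slopes each way among passing genes with a symbol and average log2 CPM of at least 5, the 3 members (where available) with the smallest p in each list, GAPDH, ACTB, MYC, FOS, JUN, MCL1, MITF, SOX10, MALAT1 and NEAT1, and 5 genes each way with the largest opposite step from 0 to 1 h. A few genes and 1 site that these rules select are not reported here.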

Additional observations from a re-analysis of the deposited data

Results flagged for a closer look

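The deposited BRIC-seq table ends with a row that names no gene and that no comparison used. In A375 it held 3, 9, 31 and 80 counts at 0, 1, 3 and 6 h, and the 80 at 6 h lie above the 3 counts that a count of 0 allows. What these reads are was not tested.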

How the results depend on the processing

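RLE size factors (2997 falling, 3525 rising), no filter (2506 and 2766 of 33416 genes), a mean CPM of at least 5 (2821 and 2708), DESeq2 (2968 and 3355) and the A375 libraries alone (2524 and 2423) kept both counts within 1.5 times of the 3316 and 3149 reported. Total counts gave 5406 and 1293, total counts without mitochondrial genes 4849 and 1832, the glycolysis sum held constant 10334 and 8, and log2(hours + 1) as the time scale 1909 and 2227. With 1 A375 library left out, the counts ran from 0 to 3036 falling and from 0 to 3041 rising, the 0 in each case without the 6 h library. The cause was not tested, beyond fewer samples and, for the scalings, the shift of all slopes.

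With the glycolysis sum held constant 45 named genes changed sign, with slopes of NEAT1 -0.42, XPO5 -0.28, HNRNPD -0.24, CCNB2 -0.22, SNHG14 -0.21, SNHG32 -0.18, MOCS2 -0.18, HNRNPA2B1 -0.18, RPS27L -0.15, RRM1 -0.15, PSMD1 -0.15, HNRNPM -0.15, MRPL39 -0.14, MRPL37 -0.14, HNRNPK -0.13, SREBF2 -0.13, MCM7 -0.12, POLE -0.12, SKIC3 -0.12, EIF2S3 -0.11, LARS1 -0.11, DCT -0.10, MRPL13 -0.079, LAMC1 -0.082, IARS1 -0.078, CDC20 -0.077, HSP90AA1 -0.075, PABPC1 -0.069, MALAT1 -0.070, HSPD1 -0.066, SNHG29 -0.055, EPRS1 -0.060, HSP90AB1 -0.057, RPL15 -0.056, RPL5 -0.042, PSMD2 -0.040, ATP5PB -0.029, ATP5F1B -0.030, VIM -0.027, ACAT2 -0.022, RPS4X -0.013, PSMB2 -0.012, SLC44A2 -0.0001, HSP90B1 -0.015 and LTBP1 -0.014. NEAT1 was also below 0 with the A375 libraries alone (-0.015), total counts (-0.11) and total counts without mitochondrial genes (-0.072). With 1 library left out, H2BC8 ran from -0.49 to 0.084 and MOCS2 from -0.063 to 0.47, changing sign without the 6 h library. Among named genes that passed, calls were lost for 12 without the 0 h library (IL1B, TENT5A, TOB2, MCL1, H4C15, MT-ND2, H2BC18, MITF, MT-CYB, MT-CO3, XPO5 and STOM), for 11 without the 1 h library (MCL1, PAX3, TTPAL, NUDT4, H2BC18, SNHG32, MOCS2, RPS27L, SNHG29, RPS2 and STOM) and for 8 without the 3 h library (IL1B, PAX3, LUZP1, TSC22D1, NUDT4, CEP97, H2BC18 and RPS27L), with no change of sign. SOX10 passed with the A375 libraries alone, DESeq2 and every scaling other than TMM and RLE. At 2671651 counts, the 0 h library limits the low genes most, and a count of 0 at 6 h allows up to 3 counts. No paired analysis of the A375 slope was possible because a block on time would take up the slope itself. For the difference of slopes between the lines, time as a block, chosen after seeing the data, pairs the libraries of the same hour (2 residual degrees of freedom). It called 1 gene with edgeR, against 0 without the block and 14 with DESeq2, and 1372 against 527 at an unadjusted p under 0.05; BTG1 had an adjusted p of 0.438 with the block. Of the 68 counts of list members falling or rising, 18 moved by over 1.5 times without the 0 h library, 23 without the 1 h, 8 without the 3 h and 52 without the 6 h library, 19 with the A375 libraries alone, 19 with no filter, 26 with log2(hours + 1), 5 with DESeq2, 5 with a mean CPM of at least 5 and 1 with RLE.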

Other observations

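Of the genes tested, 629 had a count of 0 in at least 1 A375 library, and 8 had 1 library at 0 beside 3 libraries with at least 50 counts. Several of the 8 belong to families of near-identical copies. RGPD8 had 142, 203, 202 and 0 counts at 0, 1, 3 and 6 h, and fell (slope -0.86, edgeR adjusted p = 0.046). SRGAP2C, a human-specific copy of SRGAP2, had 0, 378, 445 and 142 counts, whereas the MIR211 line held 348, 546, 486 and 0. NOTCH2NLA, a copy of part of NOTCH2, had 0, 131, 218 and 163 counts, beside 366, 295, 288 and 206 for the MIR211 line. SYNJ2BP, a mitochondrial outer membrane protein, had 0, 430, 654 and 293 counts in A375, whereas the MIR211 line held 304 at 0 h. C5orf24 had 177, 88, 67 and 0 counts and fell (slope -1.07, edgeR adjusted p = 0.00829), with 171 counts at 6 h in the MIR211 line. These genes were picked after their values were seen.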
